A study of Mus musculus with 4 samples.

Results

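The genes described are Vim, Lmna, Lmnb1, Lmnb2, Plec and Macf1, which encode the intermediate filament protein vimentin, the nuclear lamins (3 genes in the mouse) and the cytolinkers plectin and MACF1. These 6 genes were taken by name from a table of 21523 Ensembl gene identifiers, and all 6 were found. They were selected on their names with the FPKM values and fold changes of the same contrast known, so levels and fold changes are given as a description and the calls on them are no independent support. RNA came from RAW264.7, a macrophage-like line grown from a tumour of a mouse infected with a leukaemia virus, and was sequenced with a stranded mRNA kit. There were 2 libraries from cells given 0.5 mM 1,5-anhydroglucitol (1,5-AG, a polyol that is glucose without its hydroxyl group on carbon 1) for 24 h, and 2 libraries from control cells with no treatment. Both groups came from this single line kept in serum-supplemented medium, and the labels give the controls no culture time. They do not say whether the replicates were grown apart, so the p-values rest on a spread between libraries that could be purely technical.

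The step that 1 fragment makes in the values gave library sizes of 14616556 and 15112965 fragments with 1,5-AG, and 15163807 and 16228674 in control. The macrophage genes Cd68 (475 ± 5.08 FPKM with 1,5-AG and 499 ± 1.2 FPKM in control), Csf1r (239 ± 2.29 and 258 ± 0.237 FPKM) and Adgre1 (17.2 ± 0.417 and 21.7 ± 2.34 FPKM) were expressed in all 4 libraries (SD, n = 2 per group, here and below). None of these 3 passed the test between groups, with limma adjusted p from 0.139 to 0.329, though Csf1r and Adgre1 did with voom (log2 fold changes -0.11 and -0.34). Of the other 3 macrophage markers listed, Spi1 (-0.16, limma adjusted p = 0.395) and Itgam (0.04, 0.793) did not pass, and Lyz2 did (-0.56, 0.0169). Of 29 listed markers of fibroblasts, endothelium, epithelium, T cells, B cells and neutrophils, several of which are cell types rich in vimentin, 12 had a row. The highest of these was S100a8 with a mean of 0.308 FPKM, and the 12 summed to 0.733 to 0.816 FPKM per library.

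Vimentin is the main cytoplasmic intermediate filament protein of mesenchymal cells and leukocytes, in which it forms a flexible network around the nucleus and rises during macrophage differentiation. Lamins are the intermediate filament proteins of the nucleus. A-type lamins (lamin A and lamin C, both spliced from Lmna) stiffen the nuclear envelope, and B-type lamins (from Lmnb1 and Lmnb2) stay farnesylated and bound to the inner nuclear membrane. Plectin ties vimentin and other intermediate filaments to actin, to adhesion sites and to the nuclear envelope, and MACF1 is a spectraplakin that joins actin to microtubules. The values are per gene, so lamin A and lamin C, or the many isoforms of plectin and MACF1, are not separated.

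Sequence before the RefSeq transcription starts (GRCm38.p6) was searched, over 250 bases and on both strands, for TATAAA (the TATA box), CCAAT (the CCAAT box), GGGCGG (the GC box) and TGACTCA (an AP-1 site), and no match overlapped another. The stretches shown allow the promoter of Vim, the called gene, to be set beside those of an A-type and a B-type lamin gene, 5′ to 3′ on the gene's strand with matches in capitals. The first is 30 bases of Vim around its match (chr2:13574264-13574293, plus strand, inside a 5′ UTR that GENCODE draws from an earlier start). The second (chr3:88503387-88503602, minus strand) covers positions -250 to -35 relative to the outer RefSeq start searched for Lmna, at 88503352. The bases from there to the start are not shown, and the match is placed relative to the start. This second stretch ends before the start. It is inside the gene as GENCODE draws it, from an earlier start at 88509956. The third covers positions -250 to -1 relative to the start of Lmnb2 (chr10:80918246-80918495, minus strand).
Vim: ctttcctaacagtgtTATAAAagcagcgcc
Lmna: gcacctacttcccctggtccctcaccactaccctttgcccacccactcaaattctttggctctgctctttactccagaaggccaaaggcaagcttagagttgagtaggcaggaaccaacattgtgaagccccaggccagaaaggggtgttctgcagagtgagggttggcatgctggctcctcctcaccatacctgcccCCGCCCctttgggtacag
Lmnb2: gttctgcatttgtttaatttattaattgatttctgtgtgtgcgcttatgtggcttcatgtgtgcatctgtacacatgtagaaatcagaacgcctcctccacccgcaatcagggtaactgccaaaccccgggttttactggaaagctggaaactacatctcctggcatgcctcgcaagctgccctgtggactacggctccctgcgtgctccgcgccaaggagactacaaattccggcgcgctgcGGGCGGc
TATAAA began 32 bases before the start of Vim and was not among the letters of the Lmna and Lmnb2 windows; 12.4% of 32851 promoter windows of that length hold it. Vim also held CCAAT, beginning 196 bases before the start on its own strand and 94 bases before it on the other, and so did an inner start of Lmna, at 131 bases (33.8% of windows hold one). GGGCGG was matched 52 bases before the outer RefSeq start of Lmna, on the other strand, and 7 bases before Lmnb2 (32.7% of windows). TGACTCA was matched in no window searched (4.46% of windows). The window of Macf1 matched none of the 4 motifs.

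In mm10 coordinates of GENCODE release M21, Vim lies on the plus strand at chr2:13573927-13582826 with 4743 bp of merged exon, and Lmna on the minus strand at chr3:88480147-88509956 with 5838 bp. Lmnb1 lies on the plus strand of chromosome 18 (56707813 to 56753424, 2962 bp of exon) and Lmnb2 on the minus strand at chr10:80901203-80918245 (4286 bp). The cytolinker genes are far longer: Plec, minus strand, at chr15:76170974-76232574, has 18113 bp of merged exon and 22 annotated transcripts. Macf1, minus strand, at chr4:123349633-123684360, has 31402 bp and 16 transcripts, while its FPKM gave whole fragments at 31942 bp. Exons of 5 of the 6 genes overlapped no exon of another gene, while Plec shared 205 bp (1.13% of its exon length) with its same-strand neighbour Parp10, an ADP-ribosyltransferase gene. Parp10 had 6.43 and 6.47 FPKM with 1,5-AG, against 7.64 and 7.22 FPKM in control (log2 fold change -0.18), and did not pass the test (limma adjusted p = 0.208).

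Levels are FPKM, a fragment count divided by the gene's exon length and the library's size, and fold changes are differences of mean log2(FPKM + 1), 1,5-AG minus control. The call is an adjusted p under 0.05 in limma's moderated test fitted over the 11120 genes with a mean of at least 1 FPKM. All 6 genes passed that filter. Of the 6, 1 was past the threshold, Vim, which was lower with 1,5-AG, where 1.46% of all tested genes were past it in either direction and 0.647% were past it and lower. In limma, 4 of the 6 had an unadjusted p under 0.05, as had 2023 of all 11120 genes. Both 1,5-AG libraries lay below both control libraries for Vim, Lmna, Plec and Macf1, as they did for 25.4% of tested genes. They lay above both controls for Lmnb1, as they did for 24.2%, and the groups overlapped for Lmnb2. The median fold change of the 6 was -0.25, and that of all tested genes -0.0025. In bulk RNA, fewer cells of a kind and less RNA per cell cannot be told apart.

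**Figure D1:**
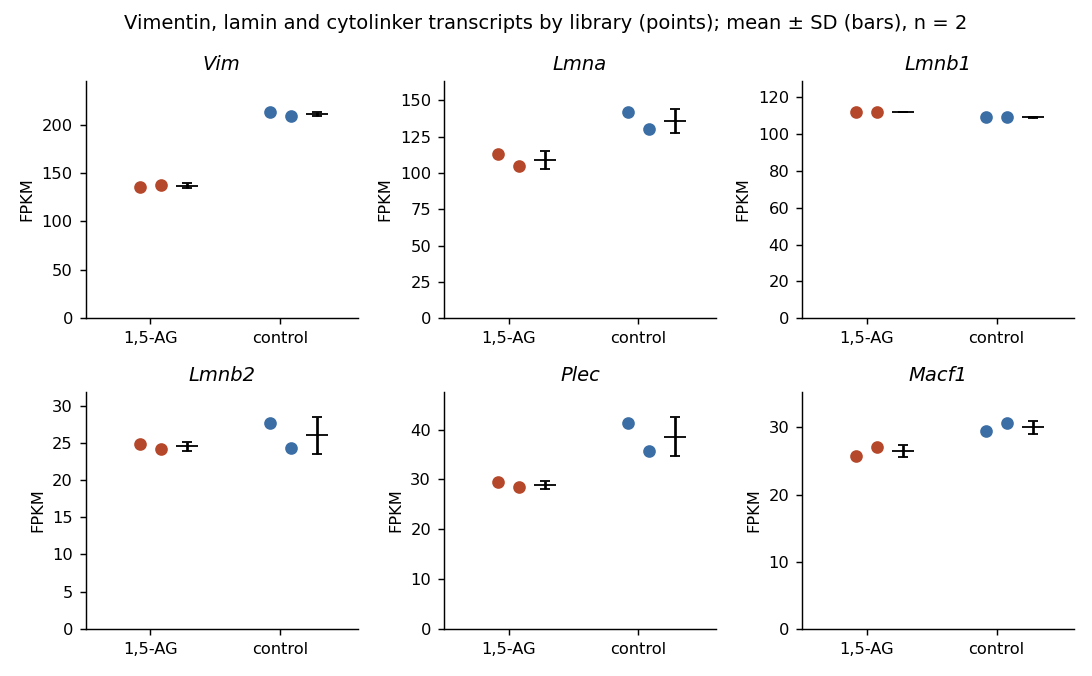
FPKM of the 6 genes in each library (y axis from 0; points, 2 libraries with 1,5-AG at the left and 2 control libraries at the right of each panel), with the mean and SD of each group as bars. The groups are farthest apart for Vim (135 and 138 FPKM with 1,5-AG, 213 and 209 FPKM in control) and overlap for Lmnb2.

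Vim fell. It had 135 and 138 FPKM in the 1,5-AG libraries, from 9371 and 9914 fragments, against 213 and 209 FPKM in the control libraries, from 15293 and 16105 fragments. The gap between the groups, 70.9 FPKM, exceeded the replicate SDs of 2.22 FPKM with 1,5-AG and 2.41 FPKM in control. The mean level was 0.648 of that of control (log2 fold change -0.62, SE 0.03), and the fold change was the 91st lowest of the 11120 tested genes. The call ended in each fit with 1 of the 4 libraries left out (fold changes -0.64 to -0.61), without a filter on low values and without a variance trend. Of the 6 listed macrophage markers, all at a mean of at least 1 FPKM, 1 fell as well: Lyz2, the lysozyme of macrophages and the most abundant of them, had 3095 and 3001 FPKM with 1,5-AG and 4554 and 4422 FPKM in control (log2 fold change -0.56, limma adjusted p = 0.0169). The 6 summed to 3933 and 3841 FPKM with 1,5-AG and to 5459 and 5313 FPKM in control, sums made up mostly of Lyz2. The part of these markers in the Vim result was not tested.

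Vim was the only one of the listed cytoplasmic intermediate filament genes to reach 1 FPKM. Of 21 others listed (keratins, desmin, neurofilament genes and relatives), 7 had a row and none reached a mean of 1 FPKM, so none entered the test. The highest was Nes, the neural progenitor filament nestin, with a mean of 0.470 FPKM, and the mean of Vim was 370 times as high. Nes had 0.512 and 0.670 FPKM with 1,5-AG (48 and 65 fragments), against 0.370 and 0.327 FPKM in control (36 and 34 fragments). The next was Ina, the neuronal filament internexin, with a mean of 0.227 FPKM.

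The profile of Vim over the 4 libraries, as log2(FPKM + 1) minus the gene's mean, was compared with those of 4713 other protein-coding genes with a mean of at least 10 FPKM. The 5 closest, by root mean square difference, were Mgst3 (0.0277), Ctsk (0.0290), Fnip2 (0.0308), Mgst2 (0.0308) and Cd300a (0.0350). Mgst3 and Mgst2 encode microsomal glutathione S-transferases, Ctsk the protease cathepsin K, Fnip2 a partner of folliculin and Cd300a an inhibitory receptor of leukocytes. Mgst3 had 30.9 and 32.3 FPKM with 1,5-AG and 49.8 and 46.8 FPKM in control. Mgst2 was expressed at lower levels, with 8.78 and 8.95 FPKM with 1,5-AG and 13.5 and 13.9 FPKM in control. All 5 had fold changes from -0.65 to -0.55 and were each past the threshold, which their likeness to a called gene all but requires. Of the other 5 genes of the set, Plec was nearest to Vim (0.130, with 43 of the compared genes closer) and Lmna followed (0.164, with 86 closer), whereas Lmnb1 was farthest (0.335).

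**Figure D2:**
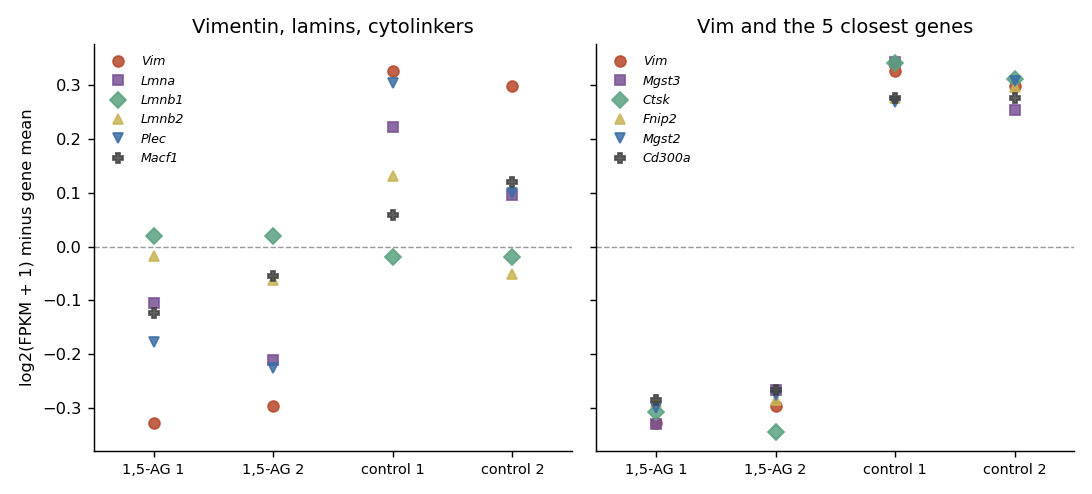
Log2(FPKM + 1) of each gene minus its mean over the 4 libraries (y axis) by library (x axis), for the 6 genes at the left and for Vim with its 5 closest genes at the right. Vim and its closest genes lie below 0 in both 1,5-AG libraries and above 0 in both controls, while Lmnb1 stays near 0 in all 4.

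Among the lamin genes, the A-type gene was lower with 1,5-AG by its values and the B-type genes differed little, with none of the 3 past the threshold. Lmna had 113 and 105 FPKM with 1,5-AG (9677 and 9238 fragments), against 142 and 130 FPKM in control (12585 and 12363 fragments). The groups did not overlap, and the mean was 0.8 of that of control (log2 fold change -0.32, SE 0.06). Lmnb1 had 112 and 112 FPKM with 1,5-AG, against 109 and 109 FPKM in control (0.05, SE 0.03), groups that were 3.41 FPKM apart. Lmnb2, the less abundant B-type gene, had 24.9 and 24.1 FPKM with 1,5-AG and 27.7 and 24.3 FPKM in control (-0.08, SE 0.07). Its control libraries differed from each other by more than the group means did.

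The A-type share of lamin transcripts was lower in both 1,5-AG libraries than in both controls. Lmna made up 45.3% and 43.4% of the FPKM summed over the 3 genes with 1,5-AG, and 51.0% and 49.5% in control. The ratio of Lmna to the sum of Lmnb1 and Lmnb2 was 0.828 and 0.767 with 1,5-AG, against 1.04 and 0.982 in control (means 0.798 ± 0.0428 and 1.01 ± 0.0431). Being a ratio within a library, it does not depend on the scaling to library size, and by itself it does not tell which gene differed. By FPKM, which does depend on that scaling, Lmna had 113 and 105 with 1,5-AG, against 142 and 130 in control. The sum of Lmnb1 and Lmnb2 was 137 and 136 FPKM with 1,5-AG, against 136 and 133 FPKM in control. The lamin sum was 246 ± 6.36 FPKM with 1,5-AG and 270 ± 10.6 FPKM in control. Lmnb2 held 9.95% and 9.97% of the sum with 1,5-AG, and 9.96% and 9.21% in control.

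**Figure D3:**
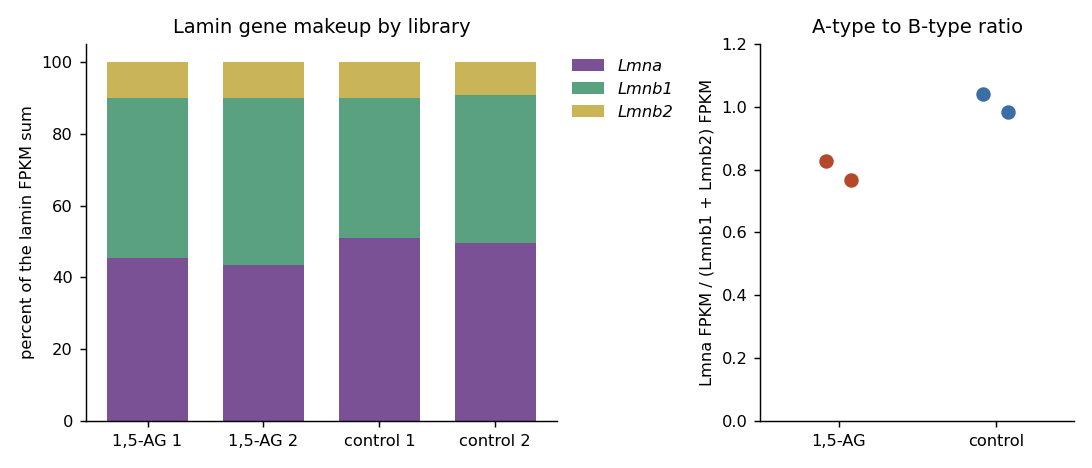
Left, percent of the summed FPKM of the 3 lamin genes taken by each (stacked bars, 1 per library); right, ratio of Lmna FPKM to Lmnb1 plus Lmnb2 FPKM (points, 2 libraries per group). Both 1,5-AG libraries (0.828 and 0.767) lie below both controls (1.04 and 0.982).

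Of the 5 enzymes that process prelamins, which farnesylate, cleave and methylate their tails, 0 were past the limma threshold (1 at an unadjusted p under 0.05, as were 2023 of all 11120 genes, and 0 with voom). The list's median fold change was 0.03, with 4 positive and 1 negative. Zmpste24, the protease that matures lamin A, had 20.7 and 21.1 FPKM with 1,5-AG and 19.8 and 19.8 FPKM in control (limma adjusted p = 0.447). Icmt, the carboxyl methyltransferase of farnesylated proteins, had 16 and 15.5 FPKM with 1,5-AG and 14.1 and 14.2 FPKM in control (0.205).

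Lamins anchor proteins of the inner nuclear membrane and, through the SUN and nesprin proteins of the LINC complex, the cytoskeleton. Of 16 tested genes of this group 1 was lower and 0 higher, where 0.647% of all tested genes were called lower and 0.809% higher, with 8 fold changes on either side of 0 and a median of 0.00. The gene that fell was Syne3, which encodes nesprin-3, the nesprin that binds plectin at the outer nuclear membrane. It had 18.2 and 17.4 FPKM with 1,5-AG, against 23.1 and 22.8 FPKM in control, without overlap (log2 fold change -0.35, SE 0.05, limma adjusted p = 0.0457). That call ended under quantile normalization and median-ratio scaling, without a filter, without a variance trend and without any 1 of the 4 libraries, with fold changes from -0.38 to -0.32. The actin-binding giant nesprin gene Syne1 had 1.76 and 1.80 FPKM with 1,5-AG, against 2.30 and 2.51 FPKM in control (-0.29, limma adjusted p = 0.214). The inner-membrane partners of nesprins, Sun1 (-0.05) and Sun2 (-0.09), were not past the threshold either. Nor were Nrm and Tmem43 of this list. Nrm had 27.7 and 27.3 FPKM with 1,5-AG, against 32.5 and 32.1 FPKM in control (-0.23, limma adjusted p = 0.0795). Tmem43 had a fold change of -0.14 (0.206). The lamin B receptor gene Lbr had 41.8 and 40.6 FPKM with 1,5-AG, against 36.2 and 36.1 FPKM in control (0.18, limma adjusted p = 0.109). Banf1, the chromatin-bridging factor that binds lamins and LEM proteins, had 109 and 107 FPKM with 1,5-AG, against 96.1 and 96.7 FPKM in control (0.16, 0.113). In limma, 6 of the 16 had an unadjusted p under 0.05, as had 2023 of all 11120 genes. With voom, which called 8.29% of all genes it tested, 4 of the 16 were past the threshold, Syne1 (-0.43) and Syne3 (-0.36) lower and Lbr (0.19) and Banf1 (0.16) higher.

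Neither cytolinker was past the threshold, although the 1,5-AG libraries lay below the controls for both. Plec had 29.4 and 28.4 FPKM with 1,5-AG (7780 and 7765 fragments), against 41.4 and 35.8 FPKM in control (11375 and 10528 fragments). The mean was 0.748 of that of control (log2 fold change -0.40, SE 0.08). The gap between the groups was 6.43 FPKM, beside replicate SDs of 0.721 FPKM with 1,5-AG and 3.96 FPKM in control. Without control replicate 1, the higher of the controls, the fold change was -0.30, and without control replicate 2 it was -0.51. Macf1 had 25.8 and 27.1 FPKM with 1,5-AG, against 29.4 and 30.7 FPKM in control, and the mean was 0.881 of that of control (-0.18, SE 0.05). The ratio of Plec to Macf1 was 1.14 and 1.05 with 1,5-AG, against 1.41 and 1.17 in control.

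Lmna and Plec changed sides of the threshold with the test. At a mean of at least 5 FPKM, where 4.8% of 7500 genes were called and 2.36% were called lower, Vim, Lmna and Plec were past it. With voom, limma's model for counts, on fragments recovered from the FPKM, where 8.29% of 11118 genes were called and 4.67% were called lower, those 3 and Macf1 were past it, each lower with 1,5-AG. Lmnb1 and Lmnb2 were past it in neither.

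**Figure D4:**
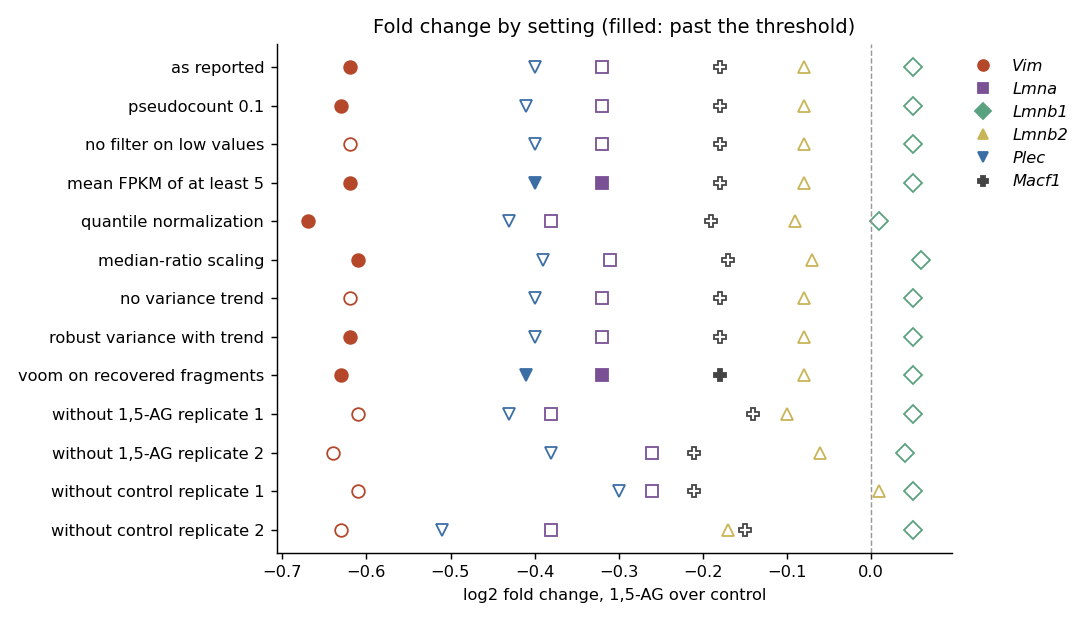
Log2 fold change, 1,5-AG over control (x axis), of the 6 genes under the reported fit and each alternative except the replicate block (rows); filled symbols are past the threshold of that fit. Vim lies between -0.67 and -0.61 in all 13 fits shown, Lmna between -0.38 and -0.26 and Plec between -0.51 and -0.30, while Lmnb2 reaches 0.01 without control replicate 1.

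Of 4 other tested cytolinker genes 0 were past the limma threshold (1 at an unadjusted p under 0.05, as were 2023 of all 11120 genes). With voom, which called 8.29% of all genes it tested, 1 was past it. The plakin gene Dst, a paralog of Macf1, was near the filter, with 0.861 and 0.911 FPKM with 1,5-AG and 1.13 and 1.17 FPKM in control (log2 fold change -0.19, limma adjusted p = 0.509), and it was past the voom threshold at -0.38. Desmoplakin (Dsp), envoplakin (Evpl) and periplakin (Ppl), plakins of epithelia, were each under 0.1 FPKM in every library. Gas2l3, which links actin and microtubules, had 12.8 and 12.6 FPKM with 1,5-AG and 14.1 and 14.3 FPKM in control (-0.15, limma adjusted p = 0.181). Gas2 had 2.51 and 2.44 FPKM with 1,5-AG and 2.07 and 2.18 FPKM in control (0.15, 0.448).

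The hemidesmosome integrin genes Itga6 and Itgb4, whose products plectin anchors in epithelia, were under 0.25 FPKM in all libraries. The tested plectin partners Dag1, the dystroglycan gene (limma adjusted p = 0.487), and Utrn, the utrophin gene (0.590), had fold changes of -0.06 and -0.11, with 0 of 2 at an unadjusted p under 0.05 and 0 with voom. Of 8 tested microtubule partners of MACF1, which bind growing plus ends or anchor minus ends, 0 were past the threshold in limma or voom (0 at an unadjusted p under 0.05), and their median was 0.00. Clip2 had 5.76 and 5.92 FPKM with 1,5-AG and 5.34 and 4.94 FPKM in control (0.16, limma adjusted p = 0.304), and Mapre1, the end-binding protein EB1, had 32.1 and 32.5 FPKM with 1,5-AG and 30.5 and 31.7 FPKM in control (0.05, 0.567).

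Filaments are taken apart and cut by kinases and proteases that act on vimentin and lamins. Of 16 such genes tested, 1 was lower and 0 higher, with a median of -0.05, beside 0.647% of all tested genes called lower. At an unadjusted p under 0.05 in limma were 3 of the 16, as were 2023 of all 11120 genes. With voom, which called 8.29% of all genes it tested, 3 were past the threshold, the kinase gene Prkcd (-0.18) among them. Pak1, the p21-activated kinase that phosphorylates vimentin, fell to 29.4 and 30.5 FPKM with 1,5-AG, against 37.4 and 37.5 FPKM in control (log2 fold change -0.32, SE 0.04, limma adjusted p = 0.0457). Its call ended without a filter, without a variance trend and without any 1 of the 4 libraries, with fold changes from -0.34 to -0.29. Its relative Pak2 had 41.3 and 40.9 FPKM with 1,5-AG and 40.5 and 41.5 FPKM in control (0.01). The mitotic kinases of vimentin and lamins, Cdk1 (-0.01), Aurkb (0.01) and Plk1 (-0.08), were not past the threshold. Capn2, a calpain that cleaves cytoskeletal proteins, was just outside it, with 9.47 and 9.78 FPKM with 1,5-AG and 12.7 and 12.5 FPKM in control (-0.36, limma adjusted p = 0.0504); it was singled out after its value was seen, and was past the voom threshold at -0.39.

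Of 8 tested factors linked to Vim transcription 0 were past the limma threshold (2 at an unadjusted p under 0.05, as were 2023 of all 11120 genes). With voom, which called 8.29% of all genes it tested, 1 was past it. The fold change was negative for 7 of the 8, as it was for 5656 of the 11120, and the median of the 8 was -0.12. Jun, a subunit of AP-1, had 9.80 and 9.40 FPKM with 1,5-AG, against 11.5 and 11.2 FPKM in control (-0.22, limma adjusted p = 0.126). Zeb2, a repressor of epithelial genes, had 9.35 and 8.79 FPKM with 1,5-AG, against 10.3 and 10.4 FPKM in control (-0.18, 0.193). Zeb2 was the gene past the voom threshold, at -0.2. Snai1 was under 0.1 FPKM in all libraries.

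For the other filament systems, 1 of 23 tested actin and tubulin genes was higher and 0 were lower, with a median of 0.01. At an unadjusted p under 0.05 in limma were 4 of the 23, as were 2023 of all 11120 genes. With voom, which called 8.29% of all genes it tested, 2 of the 23 were past the threshold. Tubb6 is a beta-tubulin gene with close paralogs, and how reads shared among them were counted is not given. It rose to 90.8 and 88.7 FPKM with 1,5-AG, against 66.9 and 61.6 FPKM in control (log2 fold change 0.48, SE 0.05, limma adjusted p = 0.0330), where 0.809% of all tested genes were past the threshold and higher. Without a filter, without a variance trend or without any 1 of the 4 libraries Tubb6 was not past it, with fold changes from 0.42 to 0.54. Actb, the cytoplasmic beta-actin gene, had 873 and 868 FPKM with 1,5-AG and 925 and 789 FPKM in control (0.03), and the filamin gene Flna had 108 and 109 FPKM with 1,5-AG and 111 and 108 FPKM in control (-0.01). Over the 59 tested genes of the lists on filaments, lamina, cytolinkers, their partners, kinases, proteases and Vim transcription, 2 were lower and 0 higher, with a median of -0.02, beside 0.647% of all tested genes called lower and a median of -0.0025.

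**Figure D5:**
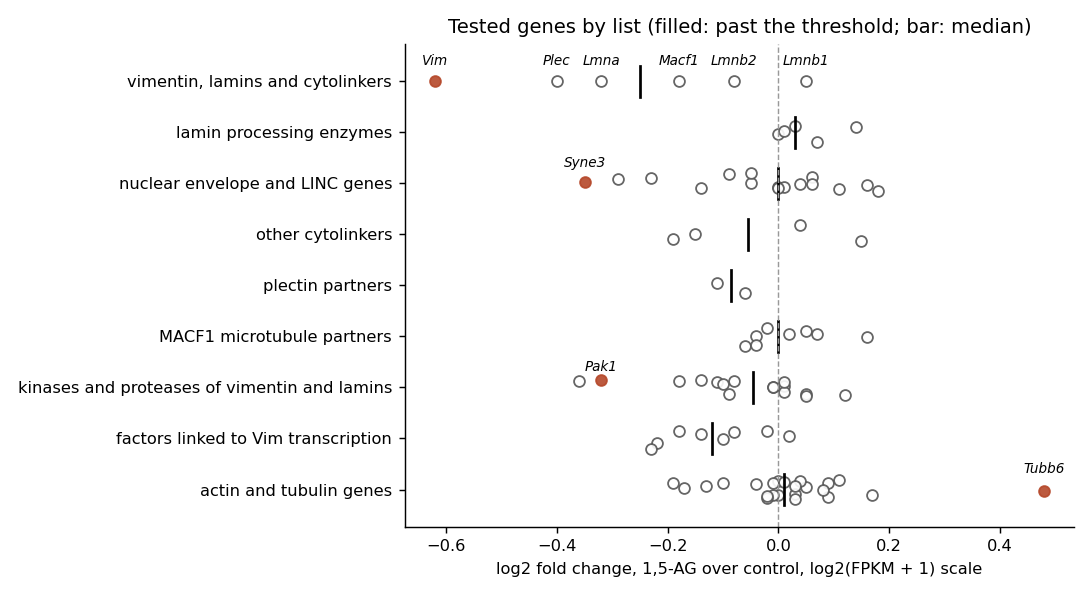
Log2 fold change, 1,5-AG over control, of each tested gene (points; filled, past the threshold) by list, with the median as a bar; vertical jitter carries no meaning. Vim, Syne3 and Pak1 are past the threshold at the left and Tubb6 at the right, and the medians of the related lists lie between -0.12 and 0.03.

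Levels of the 6 genes can be compared per length. With 1,5-AG, Vim was highest, Lmnb1 (112 ± 0.240 FPKM) and Lmna (109 ± 6.15 FPKM) did not differ beyond their spread, and Plec (28.9 ± 0.721), Macf1 (26.5 ± 0.864) and Lmnb2 (24.5 ± 0.611) followed in steps larger than their SDs. In control, Vim was followed by Lmna (136 ± 8.25 FPKM), Lmnb1 (109 ± 0.0517), Plec (38.6 ± 3.96), Macf1 (30.0 ± 0.952) and Lmnb2 (26.0 ± 2.47), without overlap between neighbours. Over the 4 libraries Vim ranked 246th in mean FPKM among the tested genes, and Lmnb2, the lowest of the 6, ranked 2214th.

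The depth behind these values leaves counting error small, and for several genes the replicates differed by much more. The controls of Plec differed by 14.5% of their mean where counting alone gives an SD of 1.35%, and those of Lmnb2 by 13.4% against 3.39%. For Lmna the replicates differed by 7.98% with 1,5-AG and by 8.56% in control, against counting SDs of 1.45% and 1.27%. Vim replicates differed by 2.29% with 1,5-AG and by 1.61% in control (counting SDs 1.44% and 1.13%). Those of Lmnb1 differed by 0.303% and 0.0674%, which is under its counting SDs of 2.01% and 1.99%. A count of 3 fragments would correspond to 0.0390 to 0.0433 FPKM for Vim and to 0.00579 to 0.00643 FPKM for Macf1. These floors and SDs cover counting error only, since PCR copies of a molecule could not be told from separate molecules.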

How the data were processed

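The authors deposited FPKM values, 1 column per library, made with Trimmomatic, HISAT2, Cufflinks and HTSeq on build mm10 per the submitters' processing notes; the sources used here give no version, strand setting or annotation release. Of 21523 identifiers 21508 matched GENCODE M21. FPKM times exon length and library size gave whole fragments in all libraries for 99.4% of them (tolerance 0.02). Macf1 did not come out whole; of lengths from 25000 to 40000 bp only 31942 bp gave whole fragments, which were used for its counting error. How reads matching several copies were treated is not given.

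limma 3.58.1 (R 4.3.3) was fitted to log2(FPKM + 1) with a variance trend, group as the only term, a mean FPKM of at least 1, Benjamini-Hochberg adjustment and a threshold of 0.05, two-sided; 8 rows sharing a symbol were left out. The added 1 understates the change of low genes. An exact permutation test of 2 against 2 cannot go below p = 0.333. The fit was tested on simulated counts with known changes, in which all genes had the same spread beyond counting. That does not show how the fit holds at the spread of these libraries. The 6 genes and the lists were chosen with earlier results of these data known. Named are the 6, Parp10, Cd68, Csf1r, Adgre1, the 5 genes closest to Vim and, per list, up to 4 members past the threshold or else the 2 with the smallest p; other genes were named after their values were seen. Alternatives were other pseudocounts, filters, scalings, variance models, voom, a replicate block and leaving out each library. Promoter sequences are from RefSeq (GRCm38.p6); of the 6 genes, Vim, Lmna, Lmnb2 and Macf1 had one.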

Additional observations from a re-analysis of the deposited data

How the results depend on the processing

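Of the tested genes 162 passed the threshold; fits without a low-value filter called 0 (2628 of 21515 at an unadjusted p under 0.05 in limma), those at a mean of at least 5 FPKM 360, those without a variance trend 5, voom 922 and those with 1 library left out 2 to 10. Of the 6 genes, 1 was past it; this was 0 without a filter and without a trend (4 at an unadjusted p under 0.05 in each, as were 2628 of 21515 and 1853 of 11120 genes, and 4 past the threshold with voom), 3 at a mean of at least 5 FPKM and 0 in each fit without 1 library (3 or 4 at an unadjusted p under 0.05, as were 1408 to 1701 of 11120 genes). Vim kept -0.62 without a filter and without a trend but was not past the threshold, and had -0.64 to -0.61 with 1 library left out. Lmna (-0.32) and Plec (-0.40) passed at a mean of at least 5 FPKM, and Lmna (-0.32), Plec (-0.41) and Macf1 (-0.18) with voom. Lmnb2 changed sign without control replicate 1 (0.01) and ranged from -0.17 to 0.01 over the fits without 1 library. The related genes past the threshold, 2, were 0 without a filter and without a trend (15 at an unadjusted p under 0.05 in each), 4 at a mean of at least 5 FPKM, 1 with quantile normalization and with median-ratio scaling, 9 with voom and 0 with 1 library left out (8 to 10 at an unadjusted p under 0.05). Without the replicate block the counts are those reported; with the replicate block 310 of 11120 genes passed, 3 of the 6 among them, with Lmna at -0.32 and Plec at -0.40. Same-numbered libraries deviated together at r = 0.0124 across genes. A correlation pooled over all genes cannot tell whether those libraries were paired, and the labels do not say. The lamin ratio of 1,5-AG over control was 0.788, and 0.758 to 0.818 without 1 library, an alternative chosen after the data were seen. Over the other 22 named genes, 231 of 284 refits left the call as it was, 50 ended it, 3 added one and 0 turned the direction. With 1 library left out, the lone sample is assumed to vary like the other group. Some of these fits hold fewer genes or libraries; beyond that, the cause was not tested.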
